A study of Mus musculus with 4 samples.

Results

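The genes described here are 38 genes of motile cilia, measured in RNA of mouse epididymal fat, the visceral fat pad that lies against the epididymis and the ducts leading out of the testis. They were listed by symbol, and the list was drawn up because 2 of them, Tmem212 and Ppil6, were lower on both high-calcium whey arrays than on the standard array. Of the 38, 37 had a probe set named for that gene alone, out of 18194 genes measured in all. Cfap44 had none, and Dnai1 and Dnai2 are listed on the array under their older symbols Dnaic1 and Dnaic2.

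All mice were C57Bl/6J and started at 9 weeks of age on a diet with 60% of its energy as fat, which they ate for 21 weeks. The high-calcium whey diet held 1.8% calcium and whey protein isolate, and the standard high-fat diet held 0.4% calcium. There were 10 mice per diet, of which 2 per diet were stated to have been profiled on Affymetrix Mouse Genome 430 2.0 arrays. The labels put 2 arrays with the high-calcium whey diet and 1 with the standard diet, and leave the diet of the remaining array open, so that it stands for neither diet. Its values are set beside those of the other arrays, and it enters no comparison of the diets. Calcium and whey protein differ together between the diets. With 1 standard array, a difference of diet and a difference of that 1 fat pad cannot be told apart.

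Motile cilia are beating hair-like projections built around a ring of doublet microtubules that encircles a central pair. Dynein arms on the doublets drive the beat, radial spokes and nexin links coordinate it, and the transcription factor FOXJ1, with RFX factors, switches on the genes that make these parts. In the male tract the efferent ducts, which join the testis to the epididymis, are lined by multiciliated cells among absorptive cells. Sperm tails share much of the same axoneme. Fat cells are not known to carry motile cilia, although many cells carry a non-motile primary cilium.

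RFX factors bind a DNA element called the X-box, an arm of which reads GTTGCC, and FOXJ1 binds forkhead motifs such as TGTTTAC. RefSeq promoter sequence (GRCm38.p6, 250 bases before to 50 after the annotated start) was found for 34 of the 38 genes. The letters GTTGCC, read on both strands, occurred in the promoters of 20 of these 34 genes (58.8%), against 3821 of all 27025 genes with a promoter (14.1%). The longer form GTTGCCNNG, every match of which contains GTTGCC, occurred in 15 of 34 (44.1%) against 5.74% of all. The forkhead letters TGTTTAC occurred in 2 of 34, Mlf1 and Ak7 (5.88%), against 4.05% of all, and TGTTGT in 5 of 34 (14.7%) against 14.5%. A match is a run of letters and not a known site. The last 200 bases before the annotated start are shown for Tmem212 and Ppil6, which led to the list, and for 4 other genes above background on the standard array, chosen to show where the letters lie. Capitals mark GTTGCC or TGTTTAC.
Tmem212 (chr3:27896369-27896568, minus strand): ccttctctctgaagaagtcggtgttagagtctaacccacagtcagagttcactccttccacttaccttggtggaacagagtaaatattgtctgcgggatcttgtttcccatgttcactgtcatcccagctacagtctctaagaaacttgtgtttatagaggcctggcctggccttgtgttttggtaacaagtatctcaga
Ppil6 (chr10:41490239-41490438, plus strand): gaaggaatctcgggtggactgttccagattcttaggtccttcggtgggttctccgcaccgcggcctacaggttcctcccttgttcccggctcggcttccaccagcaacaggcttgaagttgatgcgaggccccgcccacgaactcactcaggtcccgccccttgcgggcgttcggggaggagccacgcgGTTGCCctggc
Ccdc153 (chr9:44240477-44240676, plus strand): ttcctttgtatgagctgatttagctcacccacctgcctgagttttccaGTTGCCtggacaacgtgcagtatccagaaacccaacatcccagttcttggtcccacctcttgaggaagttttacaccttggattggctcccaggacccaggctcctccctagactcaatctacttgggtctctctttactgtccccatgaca
Dynlrb2 (chr8:116504815-116505014, plus strand): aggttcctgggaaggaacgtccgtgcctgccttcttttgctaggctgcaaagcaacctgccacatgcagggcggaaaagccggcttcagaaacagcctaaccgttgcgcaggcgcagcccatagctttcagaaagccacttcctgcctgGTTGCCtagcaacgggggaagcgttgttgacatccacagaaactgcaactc
Mlf1 (chr3:67373897-67374096, plus strand): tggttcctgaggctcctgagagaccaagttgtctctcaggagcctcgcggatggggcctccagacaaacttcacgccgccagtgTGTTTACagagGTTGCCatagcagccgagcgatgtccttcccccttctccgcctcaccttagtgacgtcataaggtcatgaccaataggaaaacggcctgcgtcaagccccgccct
Enkur (chr2:21205366-21205565, minus strand): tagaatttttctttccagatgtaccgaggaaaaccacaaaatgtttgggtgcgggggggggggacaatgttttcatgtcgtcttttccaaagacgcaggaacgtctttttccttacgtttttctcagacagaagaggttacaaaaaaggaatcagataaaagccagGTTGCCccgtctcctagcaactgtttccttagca
GTTGCC began 11 bases before the start in Ppil6, 51 bases before it in Dynlrb2, 34 in Enkur, 152 in Ccdc153 and 105 in Mlf1. In Mlf1 the TGTTTAC letters began at 116 bases before the start, just ahead of GTTGCC. Tmem212 held neither in this window.

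Signal is given as log2 of the deposited linear intensity, and levels of different genes are not compared because each probe set has its own brightness. A signal larger than the median over all probe sets of its array counted as above background. That median was -3.38 on high-calcium whey replicate 1 and -3.99 on replicate 2, against -4.002 on the standard array, with -4.09 on the array of open diet (log2). Replicate 1 therefore had the highest background level, and 12013, 11843, 12030 and 11759 of the 18194 genes were above it on these arrays in turn. Fat cell genes were bright on every array, with 8 of 8 measured adipocyte markers above background on all 4. Lep, the hormone leptin, had log2 signals of 3.58 and 3.63 on the high-calcium whey arrays, against 3.16 on the standard array. In bulk tissue, fewer cells of a type and less RNA per cell cannot be told apart.

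Motile cilia genes stood above background mainly on the standard array. Of the 37 measured, 7 were above background on high-calcium whey replicate 1 and 6 on replicate 2, against 25 on the standard array. The array of open diet had 6 above background. Replicate 1 has the highest background level, and with the median of the standard array as the level for every array, an alternative added after the data had been seen, 14 were above it on replicate 1 and 6 on replicate 2, against 25 on the standard array. Over all genes the shares were then 74.1% and 65.4% on the high-calcium whey arrays, against 66.1% on the standard array. With each array's own median as the level, the shares over all genes were 66% and 65.1% on the high-calcium whey arrays. They were 66.1% on the standard array and 64.6% on the array of open diet. That median is taken over all probe sets of an array, so these shares are nearly even by construction. In all, 19 of the 37 were above background on the standard array and on neither high-calcium whey array, whereas 2.48% of all genes were. With the common level these were 13 genes, against 1.52% of all genes. The genes that dropped out were Rsph1, Lrrc23, Drc1, Mlf1, Ak7 and Dnali1, each above the common level on replicate 1. For 17 of the 19 genes found with each array's own median, the standard array was the only one of the 4 above background, against 1.74% of all genes. A further 9 genes were above background on no array (25.2% of all genes), and 3 were above it on all 4 (57.5% of all genes).

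**Figure D1:**
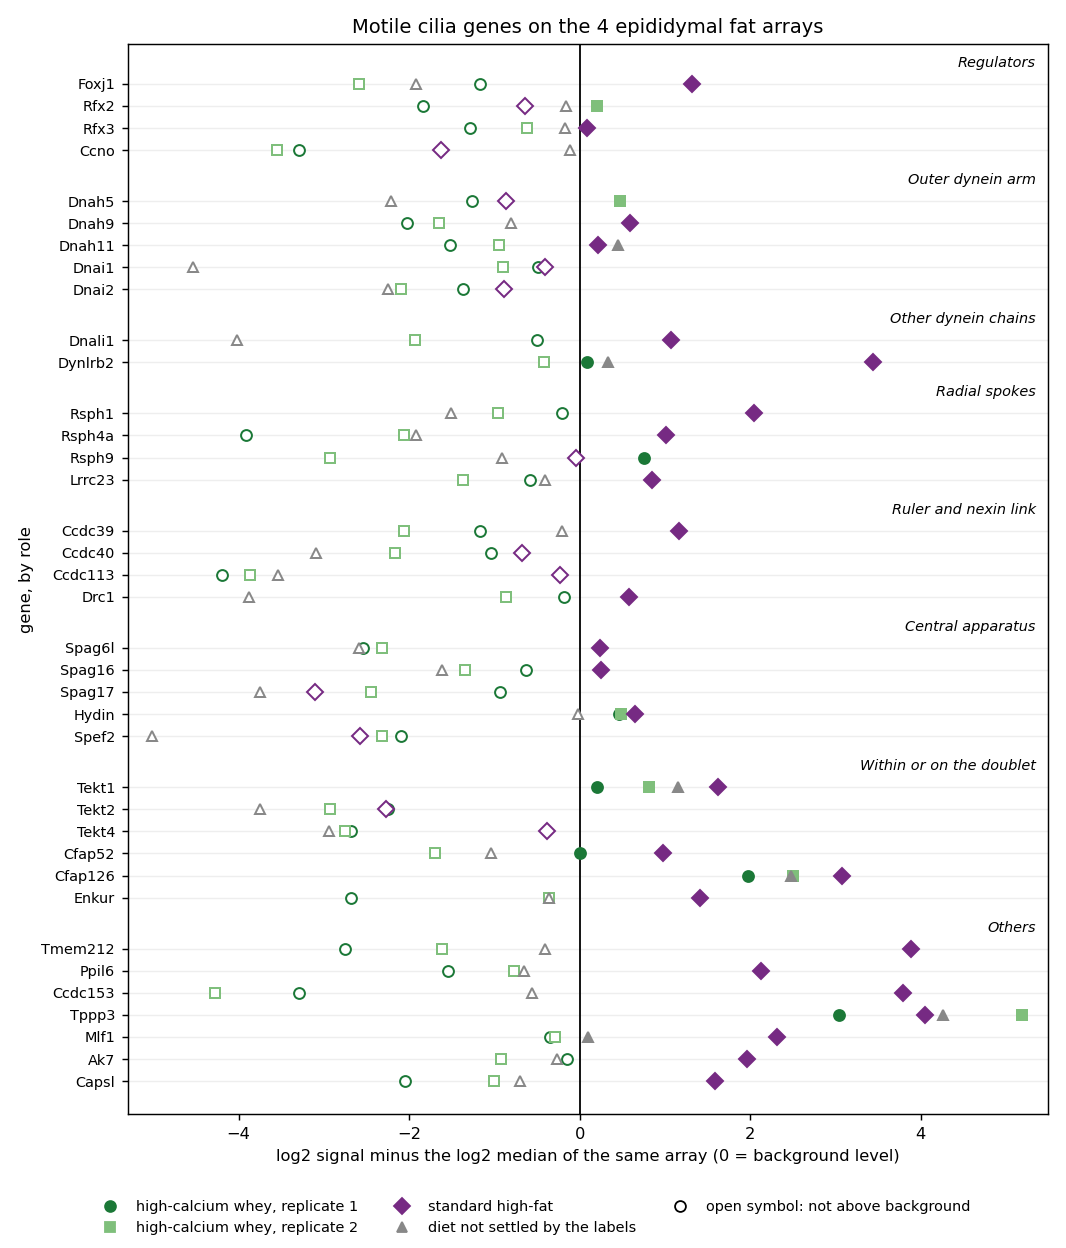
Log2 signal of the 37 measured motile cilia genes on each array, less the log2 median of that array, which is the background level at 0; genes are grouped by role, and open symbols lie at or under background. The high-calcium whey arrays (circles and squares) are above background for 7 and 6 genes and the standard array (diamonds) for 25, and Tppp3 and Cfap126 lie well above it on all 4.

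By direction, 26 of 37 genes lay lower on both high-calcium whey arrays than on the standard array, where 23.9% of all genes were, and 22 were lower by at least 1.5-fold on both, where 4.49% were. Only Spag17, not above background on any array, was higher by at least 1.5-fold on both (12.7% of all genes). The median log2 difference from the standard array was -0.95 on replicate 1 and -2.20 on replicate 2, and -1.51 for their mean, against 0.19, 0.013 and 0.079 over all genes. On the array of open diet the median difference from the standard array was -2.11, against -0.03 over all genes. Of the 37 genes 24 were brightest on the standard array among all 4, which held for 18.1% of all genes. Tmem212 and Ppil6 are among these counts and were chosen on this contrast, so the counts are a description and no test was made on them. The high-calcium whey arrays and the array of open diet are all set against the same standard array, so their differences share it. limma, fitted over all 18194 genes, called 0 genes between the diets at an adjusted p under 0.05 (0% of genes). It took the spread from the 2 high-calcium whey arrays alone. With a trend and robust estimation it called 6 genes, none of them a motile cilia gene.

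Tmem212, a small transmembrane protein of ciliated cells, had log2 signals of -6.13 and -5.61 on the high-calcium whey arrays, against -0.12 on the standard array. The array of open diet stood at -4.50. The signal was above background on the standard array alone, and the high-calcium whey mean of -5.87 ± 0.37 (SD, n = 2) is under background. For such a gene only a lower bound of the fold can be given, which sets its signal on the standard array against the mean background level of both high-calcium whey arrays. By this measure the high-calcium whey arrays were at least 11.8-fold lower. Ppil6, a cyclophilin-like protein, had -4.92 and -4.76 on the high-calcium whey arrays, against -1.88 on the standard array, at least 3.50-fold lower, and -4.75 on the array of open diet. Its high-calcium whey arrays lay close together, with an SD of 0.11 on the log2 scale.

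Ccdc153, a coiled-coil protein of ciliated cells, had log2 signals of -6.67 and -8.27 on the high-calcium whey arrays, against -0.20 on the standard array. That is at least 11.2-fold lower, and the array of open diet had -4.65. As for Tmem212, the standard array was the only one above background. Mlf1, a protein first described in myeloid leukaemia and known from multiciliated cells, had -3.72 and -4.28 on the high-calcium whey arrays, against -1.68 on the standard array, at least 4.0-fold lower. It had -3.99 on the array of open diet, just over the background there. For each of these genes both high-calcium whey arrays were lower than the single standard array, as they were for 23.9% of all genes.

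The remaining genes of this mixed set lay in the same order except for Tppp3. Ak7, an adenylate kinase of the axoneme, had log2 signals of -3.52 and -4.92 on the high-calcium whey arrays, against -2.04 on the standard array, at least 3.13-fold lower. Capsl, a calcyphosine-like protein with calcium-binding motifs, had -5.42 and -5.00 on the high-calcium whey arrays, against -2.41 on the standard array, at least 2.42-fold lower. The array of open diet had -4.36 for Ak7 and -4.79 for Capsl, both under background. Tppp3, a tubulin-binding protein known from ciliated cells and also from connective tissue cells, was above background on all 4 arrays. It had log2 signals of -0.33 and 1.20 on the high-calcium whey arrays, against 0.05 on the standard array and 0.17 on the array of open diet. The high-calcium whey arrays lay on either side of the standard array, so no direction is given for Tppp3.

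Among the regulators, Foxj1 was the gene that stood out on the standard array. It had log2 signals of -4.54 and -6.58 on the high-calcium whey arrays, against -2.68 on the standard array and -6.01 on the array of open diet. Only the standard array was above background, which bounds the difference at 2.00-fold or more. Rfx3 had -4.66 and -4.61 on the high-calcium whey arrays, against -3.92 on the standard array, which was above background by a small margin, and -4.26 on the array of open diet. Rfx2, the related RFX factor, was above background on high-calcium whey replicate 2 alone, at -3.79, with -5.21 on replicate 1, against -4.64 on the standard array. Ccno, a cyclin needed for the multiplication of centrioles in multiciliated cells, was under background on every array. The RFX genes are also active in cells that have only a primary cilium.

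The dynein genes were unevenly measured. Dynlrb2, a roadblock-type dynein light chain, had log2 signals of -3.28 and -4.41 on the high-calcium whey arrays, against -0.56 on the standard array and -3.76 on the array of open diet. It was above background on replicate 1 and not on replicate 2, with differences from the standard array of -2.73 and -3.85 on these arrays. Dnali1, a light intermediate chain of the inner dynein arms, had -3.88 and -5.92 on the high-calcium whey arrays, against -2.92 on the standard array, at least 1.69-fold lower. The second Dnali1 probe set, not used in the counts, was also above background on the standard array alone. Among the heavy chains of the outer arm, Dnah9 had -5.40 and -5.64 on the high-calcium whey arrays, against -3.41 on the standard array. The bound against the mean background is 1.21-fold. The Dnah9 signal on the standard array lay under the background level of replicate 1, at -3.38, so no bound holds against that array alone. Dnah11 had -4.90 and -4.94 on the high-calcium whey arrays, against -3.78 on the standard array and -3.65 on the array of open diet, and only the last 2 values were above background. Dnah5 lay above background on high-calcium whey replicate 2 alone, at -3.52. The probe sets used for the intermediate chains Dnai1 and Dnai2 were under background on all 4 arrays. A further Dnai1 probe set, not used in the counts, had -3.33 and -4.60 on the high-calcium whey arrays, against -7.19 on the standard array, and was above background on replicate 1 alone.

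Of the radial spoke genes, 3 of 4 were above background on the standard array alone, against 1.74% of all genes. With the median of the standard array (-4.002) as the level for every array, Rsph1 and Lrrc23 were above it on replicate 1 too. Rsph1, a protein of the spoke head, had log2 signals of -3.58 and -4.95 on the high-calcium whey arrays, against -1.95 on the standard array, at least 3.33-fold lower, and -5.60 on the array of open diet. Rsph4a, another spoke head protein, had -7.29 and -6.05 on the high-calcium whey arrays, against -2.99 on the standard array, at least 1.62-fold lower. Lrrc23, a component of the spokes, had -3.96 and -5.35 on the high-calcium whey arrays, against -3.15 on the standard array, at least 1.45-fold lower. Rsph9 differed from these, with -2.62 on high-calcium whey replicate 1 and -6.92 on replicate 2, against -4.04 on the standard array. Replicate 1 was its only array above background.

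For the proteins that set the repeat length of the axoneme and form the nexin link, 2 of 4 were above background on the standard array alone, against 1.74% of all genes. Ccdc39, which with Ccdc40 acts as a molecular ruler along the doublets, had log2 signals of -4.54 and -6.05 on the high-calcium whey arrays, against -2.84 on the standard array, at least 1.80-fold lower. That probe set can share transcripts, and with the brighter of the remaining Ccdc39 probe sets the difference turned to 0.55 between levels under background. The dimmer Ccdc39 probe set, also under background, had -8.57 and -9.86 on the high-calcium whey arrays, against -7.35 on the standard array. Drc1, a subunit of the nexin link, had -3.56 and -4.86 on the high-calcium whey arrays, against -3.43 on the standard array, a bound of 1.20-fold. That bound is against the mean background, and the signal on the standard array lay under the level of replicate 1, at -3.38. With the median of the standard array as the level for every array, Drc1 was above it on replicate 1 too. Ccdc40 and Ccdc113 were under background on every array.

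The central apparatus genes, which build the central pair and its projections, were close to or under background. Spag6l had log2 signals of -5.92 and -6.31 on the high-calcium whey arrays, against -3.76 on the standard array. Spag16 had -4.00 and -5.34 on the high-calcium whey arrays, against -3.75 on the standard array, and its difference turned to 1.29 with its probe sets averaged. For both the standard array was the only one above background, but its signal did not exceed the mean background level of the high-calcium whey arrays, so no fold is given. No fold is given for Rfx3 and Dnah11 either, whose signals on the standard array were also under that mean. Spag6l has a close relative, Spag6, whose transcripts the probe set may share. Hydin was above background on 3 arrays, with -2.91 and -3.51 on the high-calcium whey arrays, against -3.35 on the standard array, so that the standard array lay between the high-calcium whey arrays. Spag17 and Spef2 were under background throughout.

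Among proteins that lie inside or on the doublets, Tekt1 and Cfap126 were measured on all 4 arrays. Tekt1, a tektin filament protein, had log2 signals of -3.17 and -3.18 on the high-calcium whey arrays, against -2.38 on the standard array and -2.94 on the array of open diet. It was 1.74-fold lower on the high-calcium whey arrays, whose SD was 0.01 on the log2 scale. Cfap126, also called Flattop, a protein that helps to position basal bodies, had -1.40 and -1.49 on the high-calcium whey arrays, against -0.93 on the standard array and -1.62 on the array of open diet, and was 1.43-fold lower. These differences, with every array above background, were far smaller than the bounds for Tmem212 and Ccdc153. Enkur, an inner protein of the doublet, had -6.06 and -4.35 on the high-calcium whey arrays, against -2.59 on the standard array, at least 2.13-fold lower. Cfap52, another inner protein, had -3.37 and -5.69 on the high-calcium whey arrays, against -3.02 on the standard array, and was above background on replicate 1 and on the standard array. Tekt2 and Tekt4 were under background on all arrays.

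Of the 37 genes 12 had more than 1 probe set. Among the 18 probe sets not used, 3 were above background on any array, of which 2, for Rfx3 and Dnali1, were so on the standard array alone and 1, for Dnai1, on high-calcium whey replicate 1 alone. The other 15 were above background on no array. Of all 18, 5 were brightest on the standard array, which held for 18.1% of all genes by the probe set used for each. Among the 5 were probe sets of Dnah9, Ccdc39 and Cfap52 that were under background on every array.

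A list of further motile cilia genes, which holds none of the 38, was also above background mainly on the standard array. Of 104 symbols listed, several of them older and newer names of the same gene, 76 genes were measured. Above background were 21 on high-calcium whey replicate 1 and 15 on replicate 2, against 43 on the standard array, and 16 on the array of open diet. There were 21 genes (27.6%) above background on the standard array and on no other, against 1.74% of all genes, and 26 (34.2%) lower by at least 1.5-fold on both high-calcium whey arrays, against 4.49%. Their median log2 difference was -0.40 on replicate 1 and -0.99 on replicate 2. Of those measured on all 4 arrays, Nme5, a nucleoside diphosphate kinase homologue of the axoneme, had log2 signals of -2.19 and -3.48 on the high-calcium whey arrays, against -1.79 on the standard array and -3.46 on the array of open diet. Dnal4 had -1.76 and -1.69 on the high-calcium whey arrays, against -2.29 on the standard array, and was higher on both. Of the 76 genes, 38 were lower on both (23.9% of all genes). Tubb4b, a tubulin that is made in many cells, had 1.89 and 1.63 on the high-calcium whey arrays, against 1.62 on the standard array. Fam183b and Pifo, chosen after their values were seen, were above background on the standard array alone. Fam183b had -5.35 and -7.19 on the high-calcium whey arrays, against -1.66 on the standard array, at least 4.06-fold lower, and Pifo had -4.66 and -6.64 on the high-calcium whey arrays, against -1.88 on the standard array, at least 3.49-fold lower.

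**Figure D2:**
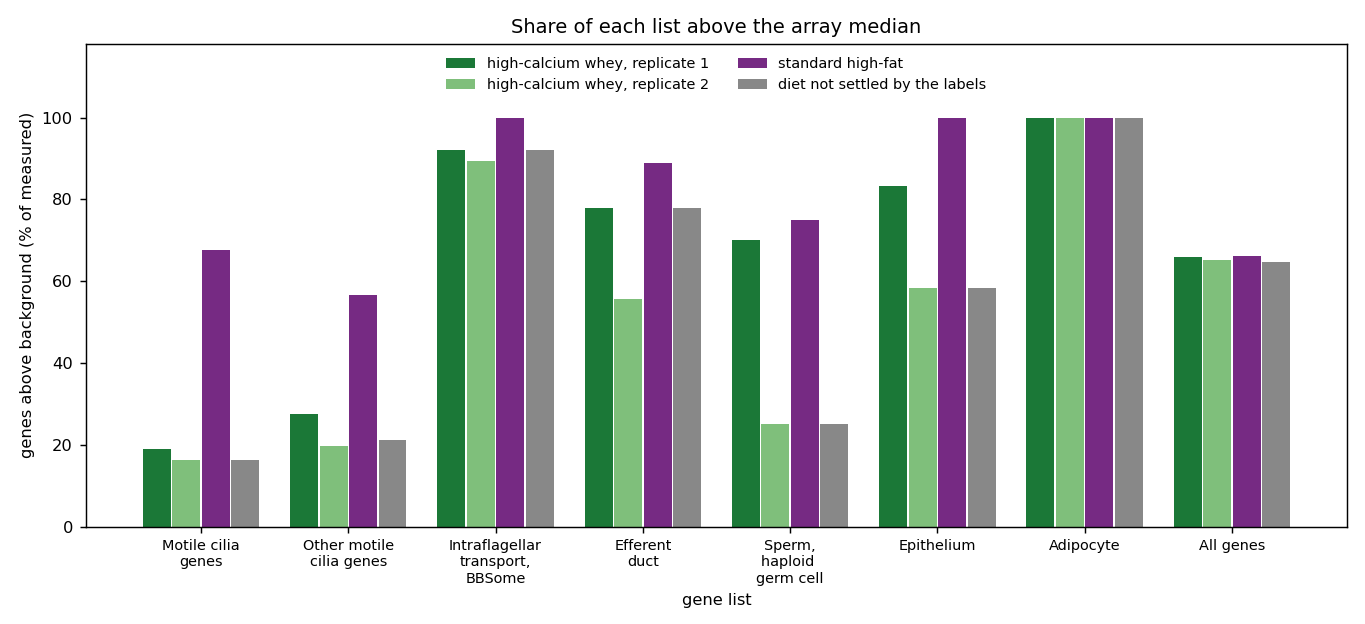
Percent of the measured genes of each list that lay above the median of the array, for each of the 4 arrays. Motile cilia genes and the further motile cilia genes are most often above background on the standard array, while intraflagellar transport genes, adipocyte genes and all genes are at nearly level shares on the 4 arrays. For all genes this is so by construction, as each array is set against its own median.

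Genes of intraflagellar transport and the BBSome, machinery that motile and primary cilia share, had nearly level values on the 4 arrays. Of 38 measured, 35 and 34 were above background on the high-calcium whey arrays, against 38 on the standard array. Of them 7 were lower on both high-calcium whey arrays (23.9% of all genes) and 0 were lower by at least 1.5-fold on both (4.49% of all genes). Their median log2 difference was 0.12 on replicate 1 and -0.06 on replicate 2. Ift74, a core transport subunit, had -1.28 and -1.40 on the high-calcium whey arrays, against -0.75 on the standard array, whereas Bbs9, a BBSome subunit, had -2.62 and -2.58 on the high-calcium whey arrays, against -3.26 on the standard array. No test of the difference between these lists was made.

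Genes of the efferent ducts, mostly those of their absorptive cells, were in part brighter on the standard array. Their list had 18 measured genes, of which 13 were lower on both high-calcium whey arrays (23.9% of all genes) and 9 at least 1.5-fold lower (4.49% of all genes), with a summed linear signal of 6.93 and 4.73 on the high-calcium whey arrays, against 14.8 on the standard array and 5.40 on the array of open diet. Above background were 14 and 10 of them on the high-calcium whey arrays, against 16 on the standard array, and Cubn, an endocytic receptor named after its values were seen, was so on none of the 4. For 6 of the 18, Adgrg2, Fbp1, Calml4, Iyd, Slc7a9 and Mmp7, the low values on these arrays were known when the list was made, and they make up 6 of the 13 and 6 of the 9. Their summed signal was 0.883 and 0.603 on the high-calcium whey arrays, against 7.17 on the standard array. The other 12 genes had sums of 6.05 and 4.13 on the high-calcium whey arrays, against 7.66 on the standard array. Of the other 12 genes 7 were lower on both high-calcium whey arrays and 3 by at least 1.5-fold, and the median log2 difference of these 12 was -0.13 for replicate 1 minus standard and -0.77 for replicate 2 minus standard. Adgrg2, an adhesion receptor of the efferent duct epithelium, had log2 signals of -1.62 and -2.84 on the high-calcium whey arrays, against 0.61 on the standard array. Car2, a carbonic anhydrase, had -2.27 and -3.94 on the high-calcium whey arrays, against -1.69 on the standard array. Aqp1, a water channel of the efferent ducts and of small vessels, had 1.26 and 0.85 on the high-calcium whey arrays, against 1.89 on the standard array. Others were brighter on replicate 1 than on the standard array, and 2 are named after their values were seen. Pax8, a transcription factor of duct epithelia, had -2.04 and -4.30 on the high-calcium whey arrays, against -4.84 on the standard array, and Aqp9, a water and glycerol channel, had -0.72 and -4.98 on the high-calcium whey arrays, against -2.50 on the standard array. Whether the ciliated cells of a duct gave the motile cilia signal was not tested, and the files hold no measure of where in the fat pad the RNA arose.

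Sperm and epididymal genes were arranged differently, with the highest summed signal on high-calcium whey replicate 1. Their sums on the standard array were also above those on replicate 2 and on the array of open diet. The 20 genes of sperm and haploid germ cells, whose tails share axoneme parts, had a summed linear signal of 6.51 on replicate 1 and 1.32 on replicate 2, against 4.28 on the standard array and 1.25 on the array of open diet. Of these 14 were above background on replicate 1 and 5 on replicate 2, against 15 on the standard array. Prm1, a sperm protamine, had log2 signals of -0.20 and -2.60 on the high-calcium whey arrays, against -0.30 on the standard array. The median log2 difference of the sperm genes from the standard array was 0.87 on replicate 1 and -1.70 on replicate 2. The part of sperm in the motile cilia values was not tested. The 7 measured epididymis genes had a summed signal of 31.3 and 0.154 on the high-calcium whey arrays, against 2.81 on the standard array. Their sum was 0.213 on the array of open diet, and 4 of the 7 were above background on no array. Above background were 3 and 0 of the 7 on the high-calcium whey arrays, against 3 on the standard array. The sums rest mostly on Spink8 and Defb42, named after their values were seen. Spink8 had log2 signals of 4.42 and -6.92 on the high-calcium whey arrays, against 1.33 on the standard array, and Defb42 had 3.25 and -4.48 on the high-calcium whey arrays, against -3.21 on the standard array. The 12 epithelial genes had sums of 10.0 and 1.19 on the high-calcium whey arrays, against 4.002 on the standard array. On the array of open diet their sum was 1.28. Above background were 10 and 7 of the 12 on the high-calcium whey arrays, against 12 on the standard array. Krt8, an epithelial keratin, had log2 signals of 0.80 and -2.20 on the high-calcium whey arrays, against 0.03 on the standard array. Epcam had -1.34 and -2.63 on the high-calcium whey arrays, against -3.17 on the standard array, and was higher on both. Of the 12 genes, 2 were lower on both (23.9% of all genes).

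**Figure D3:**
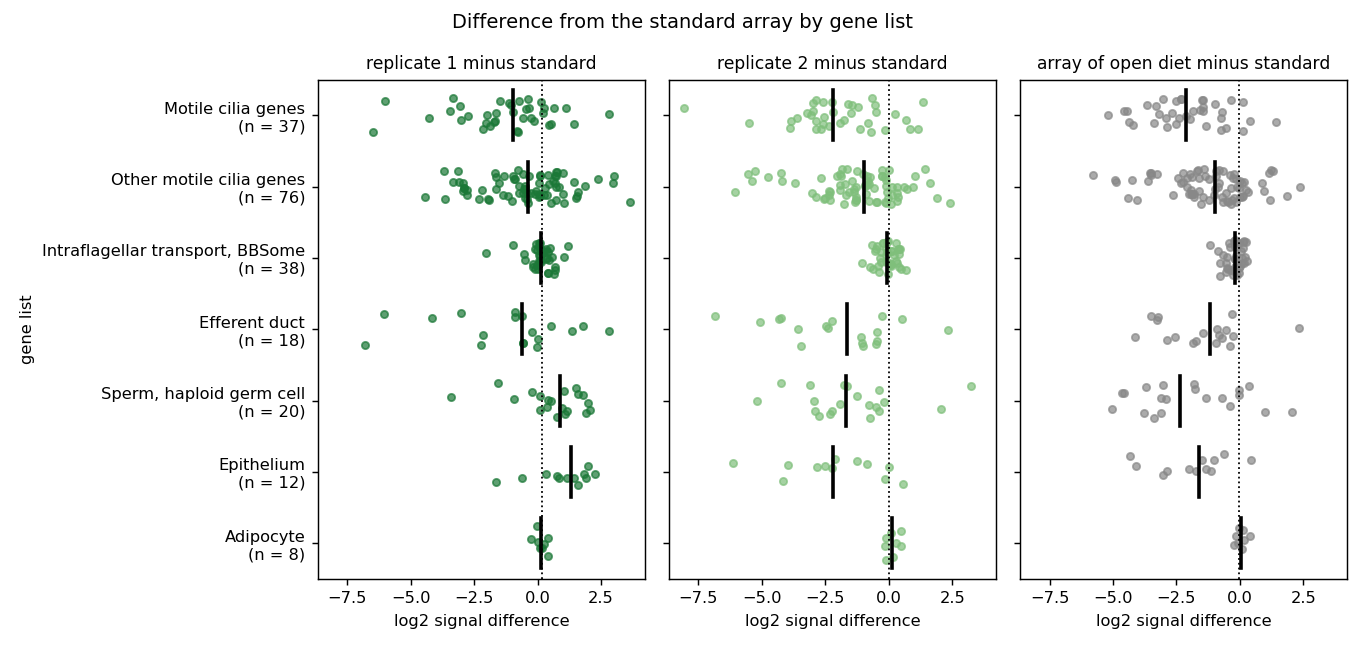
Log2 difference of each gene from the standard array, for both high-calcium whey arrays and the array of open diet; points are genes, thick bars are list medians and dotted lines the median of all genes. The motile cilia list has medians of -0.95, -2.20 and -2.11, whereas the sperm list lies at 0.87 on replicate 1 and at -1.70 on replicate 2.

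Markers of other cells of the fat pad were arranged in further ways. Smooth muscle genes had a summed signal of 61.4 and 8.99 on the high-calcium whey arrays, against 10.1 on the standard array, with 7 and 6 of 7 above background on the high-calcium whey arrays, against 7 on the standard array. Genes of the mesothelium, the outer lining of the pad, had sums of 5.45 and 2.41 on the high-calcium whey arrays, against 1.96 on the standard array. Both this list and the epithelial list hold Krt19. It had log2 signals of 1.35 and -1.89 on the high-calcium whey arrays, against -0.63 on the standard array. Macrophage genes had sums of 34.1 and 54.5 on the high-calcium whey arrays, against 51.8 on the standard array. All 8 mesothelial and all 7 macrophage genes were above background on every array. The part of these cells in the motile cilia values was not tested.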

How the data were processed

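Total RNA of epididymal fat was labelled with biotin and hybridised to 4 arrays. The values are deposited linear intensities, 1 for each of 45101 probe sets. The submitters' processing notes name RMA, yet the deposited intensities are linear and not log2, with the lowest value of each array at its median divided by 100, so the scaling the authors applied is unknown here. Intensities were log2 transformed with no added constant and no further normalization. The platform annotation gave 34958 probe sets 1 gene symbol, 932 several and 9211 none; 34754 matched a current gene record. The brightest probe set by mean log2 signal over all 4 arrays stood for each of 18194 genes, and background was the median of each array.

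Members and gene lists were chosen with earlier results of these data known. Every member is accounted for. Other named genes were picked from those above background on all 4 arrays, among the up to 6 a list with the largest differences. Not all of these were named, and the picks do not follow the order of size. Those named after their values were seen are marked so. limma 3.58.1 in R 4.3.3 (lmFit, eBayes, Benjamini-Hochberg, two-sided) was fitted over all genes on the 3 labelled arrays with 1 residual degree of freedom and tested on simulated data. The labels name no batch. Alternatives were the choice of probe set, normalization, an added constant, the background level, limma's prior, a filter on dim genes and leaving out each high-calcium array. The number of arrays limits the precision.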

Additional observations from a re-analysis of the deposited data

Results flagged for a closer look

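The array of open diet takes part in no comparison of the diets, and 2 motile cilia genes were above its background and brighter there than on the standard array. Tppp3 had a log2 signal of 0.17 on the array of open diet, against 0.05 on the standard array. Dnah11 had -3.65 on the array of open diet, against -3.78 on the standard array. Groups of 1 and 2 arrays are too small for a check of single outlying arrays.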

How the results depend on the processing

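No paired analysis was possible because the labels pair no arrays across the diets. Without 1 high-calcium whey array no residual degree of freedom is left, so limma was not run there. limma called 0 genes as deposited, 96 on arrays centred on their medians (61 higher, 35 lower), among them the motile cilia genes Tmem212, Ccdc153 and Rsph4a, and 6 with a trend and robust estimation, none of them a motile cilia gene. Each of these fits covered 18194 genes and used the contrast on which Tmem212 and Ppil6 were chosen. The calls of motile cilia genes are therefore a description and no support for the list. Centring took the median difference of all genes to -0.24 and that of the motile cilia genes to -1.82. With the array median added before log2, which damps dim genes, 11 of 37 motile cilia genes were lower by at least 1.5-fold on both high-calcium whey arrays (0.693% of all genes) and their median difference was -0.43. Background was also set at the 75th percentile of each array. Above it on the standard array and on neither high-calcium whey array were then 4 motile cilia genes (1.11% of all genes). So was 1 of the further motile cilia genes. At 1.5 times the array median there were 17 and 16 (2.26% of all genes). With the median of the standard array as the level on every array there were 13 and 19 (1.52% of all genes). These 2 counts and their alternatives were chosen after the data had been seen. Leaving out a high-calcium whey array gave, for the motile cilia genes, 28 to 32 lower (36.6% to 48.6% of all genes). At least 1.5-fold lower were 22 to 29 (10.9% to 15.9%), and 24 to 30 were brightest on the standard array (23.3% to 35.2%). Above background on every array left were 3 to 4 (58.4% to 60% of all genes). Above background on the standard array and on no high-calcium whey array left were 19 to 21 (4.71% to 5.58% of all genes). The median difference was -2.20 to -0.95. For the further motile cilia genes the count above background on the standard array and on no high-calcium whey array left was 26 to 28. Of 220 single-gene differences recomputed, 11 in 6 genes changed sign; the cause was not tested. These were Rfx2 on centred arrays (-0.17), after quantile normalization (-0.28) and without replicate 2 (-0.57, against 0.86 without replicate 1); Hydin under the first 2 of these (-0.17 and -0.080) and without replicate 1 (-0.15, against 0.44 without replicate 2); Rsph9 with the median added (0.14) and without replicate 2 (1.43, against -2.88 without replicate 1); Ccdc39 without probe sets that can share transcripts (0.55); Spag16 with its probe sets averaged (1.29); and Tppp3 without replicate 2 (-0.38, against 1.16 without replicate 1). Dim signal leaves 9 of 37 motile cilia genes above background on no array, near the 25.2% of all genes.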
